A study of Mus musculus with 24 samples.

Results

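The regions described here are the 1 Mb bins of mouse chromosomes 8, 9 and 18 in the mm10 genome build, counted in ChIP-seq libraries of cells with and without SIRT7. The chromosomes were chosen by a measured value, the mild rise of their reads in the SIRT7-KO libraries against WT in the first of 2 deposited tables. The members are every bin of the 3 chromosomes whose mean read count reached 100 in each of the deposited tables, which gave 338 bins of the 2582 that passed this minimum on the 19 autosomes and the X. Chromosome 8 holds 127 of them, chromosome 9 holds 123 and chromosome 18 holds 88. Of the 346 bins listed for these chromosomes 8 were left out, all at the centromere end. The mean count was 0 in 7 of those and 3.33 (first table) and 1.67 (clone table) in the bin 2000001 to 3000000 of chromosome 18. The lowest member, 2000001 to 3000000 of chromosome 9, held 45.4 to 64.6 CPM in the first table and 3.90 to 6.52 in the clone libraries. CPM is the reads of a bin scaled to a total of 1000000 autosomal reads.

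All cells were female C57BL6/CAST hybrid cells labelled TTF, and all were labelled as given 5 Gy of X-rays followed by 30 min of recovery, so no library is labelled as unirradiated. In the first table, WT and SIRT7-KO cells each have 2 libraries of input (sheared chromatin without antibody), of the histone H2AX and of its phosphorylated form, γH2AX. In the second, the clone table, clones of SIRT7-KO (named c22, c9), these clones with SIRT7-WT added back (the rescued clones) and SIRT7-HY clones (c5, c7) each have 1 H2AX and 1 γH2AX library per clone, beside 2 WT libraries per assay. HY is not explained in the labels, and each clone library stands for 1 clone. The columns of the first table are named NT and Xray although all its samples are labelled as irradiated, and the clone columns are numbered 1 and 2 without the clone's name. They are called the NT-named and Xray-named library and columns 1 and 2 here. NT is not explained. If it marks cells without X-rays, the 2 libraries of a group differ in treatment, and every SD and test of the first table takes that difference as spread between replicates. In γH2AX the step from the NT-named to the Xray-named library was alike in KO and WT over bins (r = 0.945 over the 338 bins, a description). The labels do not say whether paired columns came from separate cultures, so the p-values measure only the spread between these samples. The second WT column of the clone table held the same counts as the NT-named WT library in all 338 bins in each assay. By its name that column belongs to a WT sample labelled as irradiated. The Xray-named WT library equals neither WT column of the clone table. Each assay thus has more WT libraries than the 2 labelled WT samples, which the labels do not explain. Some results that use the copied column are also given without it, and the others only with it.

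H2AX is a variant of histone H2A that is built into nucleosomes throughout the genome. The kinases ATM, ATR and DNA-PK phosphorylate it around DNA double-strand breaks, and the phosphorylated form can spread over megabases, which is why it is read in large bins. SIRT7 is a nuclear deacylase of chromatin proteins that is recruited to sites of damage. The input reads of a bin depend on how much of its DNA entered the library and on how readily its reads map. These chromosomes carry several genes of this response: H2ax itself, Atm, Chek1, Atr and Mre11a on chromosome 9 and Wrn, Polb and Fanca on chromosome 8.

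The results for γH2AX turn on 3 bins, the last 2 of chromosome 8 and the one next to last on chromosome 9. The stretches before the starts of Nrp1 (a receptor for semaphorins and VEGF) and Itgb1 (integrin beta 1), which start in the next to last bin of chromosome 8, and of Lars2 (the mitochondrial leucyl-tRNA synthetase), which starts in the bin of chromosome 9, are shown so that the sequence of these bins can be seen. They are the 250 bases upstream of each gene's start in RefSeq, build GRCm38.p6 (the assembly that mm10 is), on the plus strand, 5′ to 3′, and capitals mark a GC box, GGGCGG, read in either direction.
Nrp1, chr8:128358823-128359072: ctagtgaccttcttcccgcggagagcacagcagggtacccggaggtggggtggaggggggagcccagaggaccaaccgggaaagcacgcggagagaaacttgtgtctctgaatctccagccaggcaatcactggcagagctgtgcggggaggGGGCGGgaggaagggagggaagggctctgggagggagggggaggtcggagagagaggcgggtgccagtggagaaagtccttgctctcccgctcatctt
Itgb1, chr8:128685404-128685653: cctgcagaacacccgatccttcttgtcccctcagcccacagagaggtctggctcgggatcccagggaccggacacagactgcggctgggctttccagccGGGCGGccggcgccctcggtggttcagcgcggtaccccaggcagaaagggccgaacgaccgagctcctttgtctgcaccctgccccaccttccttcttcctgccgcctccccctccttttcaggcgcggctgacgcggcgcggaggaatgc
Lars2, chr9:123366677-123366926: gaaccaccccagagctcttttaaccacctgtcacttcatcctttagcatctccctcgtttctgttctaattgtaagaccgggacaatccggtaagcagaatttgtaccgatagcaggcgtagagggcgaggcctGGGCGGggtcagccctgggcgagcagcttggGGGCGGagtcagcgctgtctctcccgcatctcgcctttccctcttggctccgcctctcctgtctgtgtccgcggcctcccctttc
The GC box occurred once in the windows of Nrp1 and Itgb1 and at 2 places in that of Lars2. Over all 32851 RefSeq promoters of the same length, 32.7% held it on one strand or the other. The letters CCAAT, also searched on both strands, occurred in 0 of the 3 windows and in 33.8% of all promoters.

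The first-table libraries held 170013624 to 268180310 reads and the clone libraries 70349148 to 155364952. A typical tested bin held 55290 to 88990 reads in the first table, so counting error was small beside the spread between libraries. That spread (edgeR's biological coefficient of variation, common to all bins) was 3.23% in the first table and 11.4% over the clone libraries. Together the 338 bins took 13.7% to 13.8% of autosomal reads in WT of the first table, 13.8% to 13.9% in the WT libraries found only in the clone table, 14.6% to 15.0% in KO and 12.8% to 14.3% in the clones.

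Because the KO and WT libraries of the first table chose these chromosomes, their difference is described without a test. In input, chromosome 8 took 4.34% ± 0.0107 (SD, n = 2) of autosomal reads in WT and 4.89% ± 0.0056 in KO. The H2AX libraries gave 4.40% ± 0.0448 and 4.96% ± 0.00637, and the γH2AX libraries 4.44% ± 0.120 and 4.94% ± 0.121. Chromosome 8 was thus higher in both KO libraries than in both WT libraries of each assay, and by a like ratio with and without antibody. On chromosome 18 the input shares were 2.88% ± 0.00715 in WT and 3.01% ± 0.0105 in KO, the H2AX shares 2.84% ± 0.0243 and 2.97% ± 0.0115, and the γH2AX shares 2.90% ± 0.00575 and 3.02% ± 0.000824. On chromosome 9 the input shares were 6.46% ± 0.00644 and 6.93% ± 0.0103, the H2AX shares 6.59% ± 0.0986 and 7.06% ± 0.0149, and the γH2AX shares 6.37% ± 0.199 and 6.71% ± 0.034. The libraries are of many cells, so a large change in some cells and a small one in all cells cannot be told apart.

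**Figure D1:**
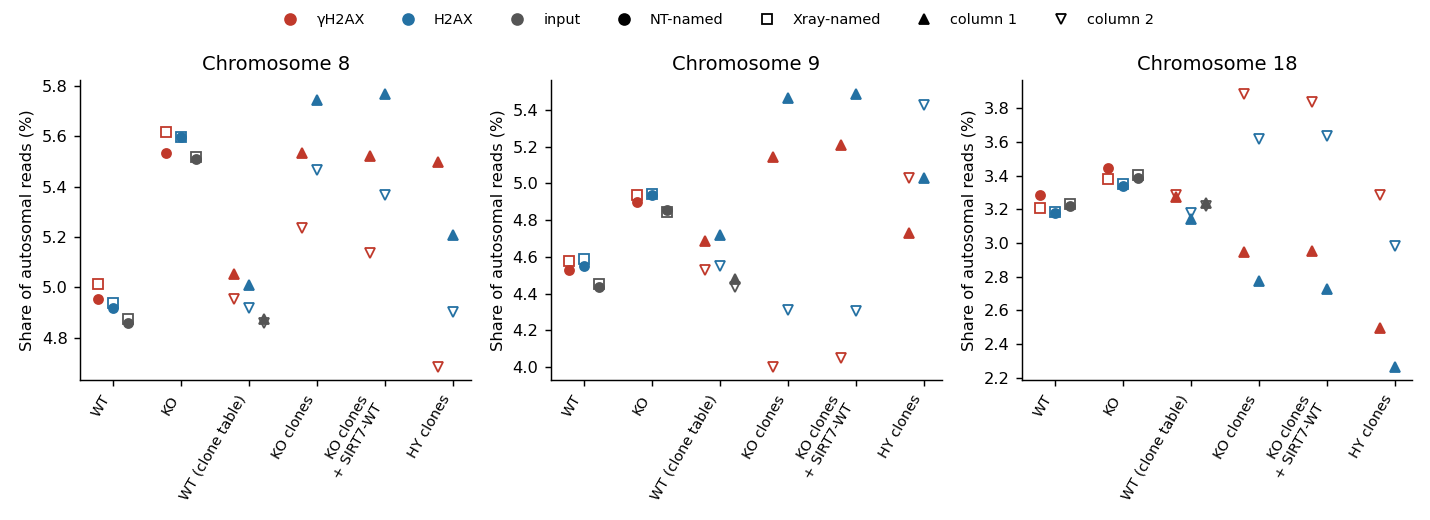
Share of autosomal reads (%) on chromosomes 8, 9 and 18 in each library, by group (x axis) and assay (colour), leaving out the 7 bins of the genome with over 5 times the median count; symbols give the column, and the axes do not start at 0. The KO points lie above the WT points on chromosome 8, while on chromosomes 9 and 18 the columns of the KO clones lie far apart.

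Part of chromosome 9's large share came from 2 bins with over 5 times the median count. The bin 3000001 to 4000000 held 12793 to 17137 CPM in the first table and the bin 35000001 to 36000000 held 8160 to 10285 CPM, far above ordinary bins. Between them they took 33.6% to 40.8% of the reads of chromosome 9 in the WT and KO libraries of the first table and the WT libraries of the clone table. In the clone libraries they held 4360 to 7447 and 1538 to 2201 CPM, or 10.3% to 20.1% of the chromosome. Without the bins of this kind in the genome the γH2AX, H2AX and input log2 ratios of KO to WT on chromosome 9 were 0.11, 0.11 and 0.13, against 0.07, 0.10 and 0.10 with them.

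Chromosomes 8 and 18 were raised along their whole length, but chromosome 9 was not. On chromosome 8 all 127 bins lay above a ratio of 1 in input and in H2AX, and 124 did in γH2AX. The median log2 ratios of γH2AX, H2AX and input were 0.16, 0.17 and 0.17, and the input values ran from 0.03 to 0.27. On chromosome 18, 87 of 88 bins lay above 1 for γH2AX, 85 for H2AX and 87 for input, with medians of 0.06, 0.07 and 0.07. On chromosome 9, 84 bins lay above 1 and 39 below in each assay. The name "mildly raised" therefore holds for chromosomes 8 and 18 and for 84 bins of chromosome 9. Over the 2076 bins of the other autosomes the median was -0.07 in each assay.

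The lower bins of chromosome 9 formed one stretch broken by a single bin. From 2000001 to 23000000 its 21 bins were higher in KO, with a mean log2 ratio of 0.20 in input. The 12 bins from 23000001 to 35000000 had mean log2 ratios of -0.17, -0.18 and -0.16 for γH2AX, H2AX and input. After the high-count bin at 35000001 (0.08 in input), the 27 bins from 36000001 to 63000000 had -0.18, -0.17 and -0.16. The 62 bins from 63000001 to the end were higher again, with 0.22, 0.22 and 0.24. The levels thus stepped between 2 values along chromosome 9, whereas chromosome 8 was a single run of higher bins.

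**Figure D2:**
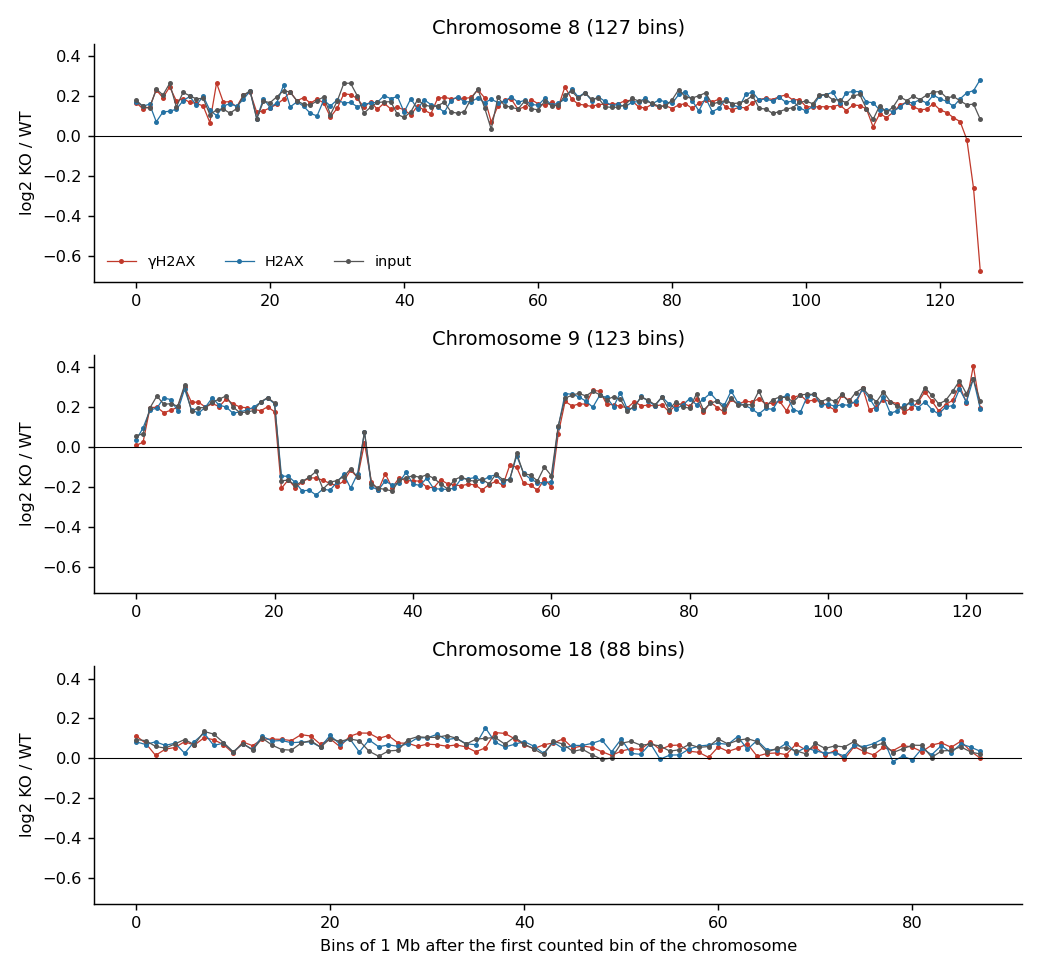
Log2 ratio of the KO to the WT mean (y axis) for each bin of chromosomes 8, 9 and 18 along the chromosome (x axis, bins in order from the centromere end), in γH2AX, H2AX and input. The 3 assays follow each other bin by bin, chromosome 9 drops below 0 over its lower stretch, and the γH2AX points of the last 2 bins of chromosome 8 fall away from the other assays.

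The extremes by input show how even these runs were. The bin with Tnks (tankyrase), from 34000001 on chromosome 8, had input levels of 312 and 313 CPM in the NT-named and Xray-named WT libraries and 381 and 371 in the KO libraries. The lowest of chromosome 8, from 56000001 with Fbxo8, Hpgd and Cep44, had 359 and 352 in WT and 364 and 364 in KO. Even there the groups did not overlap. On chromosome 9 the bin with Lars2, Sacm1l and Fyco1 (123000001 to 124000000) stood highest, with input levels of 343 and 342 CPM in WT against 438 and 430 in KO. A bin of olfactory receptor genes, from 39000001, stood lowest, with 298 and 298 in WT and 255 and 256 in KO. On chromosome 18 the highest bin was that of Greb1l, Rock1 and Mib1 (from 10000001), with 341 and 338 in WT and 374 and 372 in KO. The only input value below a ratio of 1 on chromosome 18, in the bin of Prr16 (from 51000001), was a log2 of -0.0057.

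At the chromosome ends the picture was the same. The first tested bin of chromosome 8, with Insr (the insulin receptor), had input levels of 322 and 325 CPM in WT against 362 and 371 in KO. The last of chromosome 9 had 192 and 194 in WT and 225 and 229 in KO. The last of chromosome 18, with Tmx3, had 216 and 217 in WT and 218 and 222 in KO, the smallest gap of these ends.

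Both KO libraries lay above both WT libraries in 218 bins of γH2AX, 283 of H2AX and 286 of input, and both lay below in 39, 39 and 40. Over all 2582 bins, 29.9% lay above and 39.2% below in γH2AX, 34.4% above and 56.8% below in H2AX, and 35.8% above and 58% below in input. Nothing is read from these counts, since the same contrast chose the chromosomes.

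The genes of the DNA damage response and replication on these chromosomes fell in both kinds of stretch. Of the 31 bins that hold them, 25 lay above a ratio of 1 in each assay, with median log2 ratios of 0.15 for γH2AX and 0.18 for H2AX and input. The 6 others lie in the lower stretch of chromosome 9 and hold H2ax, Atm (the kinase of double-strand breaks), Chek1 (a checkpoint kinase), Neil1 (a DNA glycosylase) and Usp28 (a deubiquitinase). The H2ax gene lies at chr9:44334715-44336077. Its bin had input levels of 352 and 350 CPM in WT against 320 and 318 in KO, H2AX levels of 411 and 418 against 371 and 373, and γH2AX levels of 388 and 451 against 339 and 391. In γH2AX the groups overlapped there, since the Xray-named KO library stood above the NT-named WT library. In the bin of Atm that starts at 53000001, input levels were 346 and 344 in WT and 306 and 301 in KO.

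Other gene groups were spread over both kinds of stretch too. Among 59 bins of long genes 52 lay above a ratio of 1 (median input log2 0.13), among 14 bins of extracellular matrix and fibroblast genes 12 did (0.13), and among 26 bins of gene-family arrays such as the olfactory receptors 22 did (0.16). The matrix bins below 1 hold Thy1, which shares the bin of H2ax, and Loxl1. All 3 bins of the imprinted genes Rasgrf1 and Impact lay above 1, with a median input log2 of 0.21. Over all 338 bins 298 lay above 1 in input. Since the same contrast chose the chromosomes, nothing is read about the gene groups from these counts.

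How the 3 assays compare within one genotype was not used to choose the chromosomes and could be tested. In WT, H2AX stood above input in 118 of the 338 bins and below it in 61 (edgeR quasi-likelihood test, adjusted p under 0.05 over 2582 bins). Over all bins 30.5% were higher and 25.9% lower. Chromosome 9 had 54 higher and 15 lower, chromosome 8 had 45 and 29, and chromosome 18 had 19 and 17. In KO, 78 bins were higher and 84 lower, against 21.4% and 28.2% of all bins. Scaled to the autosomal total in place of TMM (edgeR's trimmed-mean scaling), the WT split was 88 higher and 91 lower and the KO split 69 and 80, so the balance of directions depends on the scaling. Leaving out 1 of the H2AX or input libraries turned the 179 calls of WT into 102 to 152 and the 162 calls of KO into 59 to 99.

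The bins that stood out were the same in kind in both genotypes. The bin of Cdh13 (T-cadherin), from 118000001 on chromosome 8, had input levels of 361 and 349 CPM and H2AX levels of 442 and 454 in WT, and input levels of 400 and 403 and H2AX levels of 500 and 509 in KO. H2AX was above input by a log2 of 0.36 in WT (SE 0.0381, adjusted p = 0.000165, edgeR) and of 0.33 in KO. The bin of Fat1 (an atypical cadherin) on the same chromosome had input levels of 366 and 359 and H2AX levels of 289 and 284 in WT, with a log2 of -0.32 (SE 0.0243, adjusted p = 7.47e-05, edgeR). In KO its value was -0.28. H2AX was also below input in the bin of Nrg1 (neuregulin) in WT (-0.29) and, in both genotypes, in the bin from 84000001 on chromosome 9, where no protein-coding gene starts (-0.34 in WT and -0.31 in KO). On chromosome 18, the bin of Smad2 (a TGF-beta signal transducer) had H2AX above input by 0.21 in WT and 0.14 in KO, and that of Setbp1 had it below by -0.23 and -0.24.

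γH2AX differed from H2AX in fewer bins. In WT it was higher in 38 of the 338 bins and lower in 8, against 8.64% and 3.6% of all bins, and in KO higher in 16 and lower in 1, against 3.41% and 0.387%. On chromosome 18 the calls were 16 higher and 0 lower in WT and 10 higher and 0 lower in KO (edgeR). The WT counts were 34 and 18 with the autosomal total. They rested on single libraries: without the Xray-named H2AX WT library 3 calls were made in place of 46, and without the NT-named γH2AX WT library 109. In KO no call was made without either H2AX library or with only the groups compared in the fit, and 55 were made by DESeq2.

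Among the named bins, that of Nr3c1 (the glucocorticoid receptor) on chromosome 18 had γH2AX levels of 367 and 376 CPM in WT against H2AX levels of 326 and 317, a log2 of 0.21 (SE 0.0272, adjusted p = 0.00391, edgeR). The bin of Pdgfd and Dync2h1 on chromosome 9 had 0.18 (SE 0.0243, adjusted p = 0.00545, edgeR). There H2AX stood below input in WT by a log2 of -0.27, so the value is not an excess of γH2AX over input. The bins of Cdh13 (-0.17) and Sall1 (-0.17) on chromosome 8 and of Cadm1 (-0.14) on chromosome 9 were lower in γH2AX than in H2AX. In the Cdh13 bin H2AX itself stood above input in WT by 0.36, so the value is not a deficit against input. The call for Cdh13 was lost without either H2AX WT library. The bin of Lars2 had the largest excess of γH2AX on chromosome 9 among the named bins. The gene lists class this bin as repeat-like, and how reads that map to several places were counted is not given. Its signal therefore cannot be tied to the gene. The γH2AX levels of the bin were 569 and 472 CPM in WT against 787 and 592 in KO. The H2AX levels were 351 and 354 in WT and 451 and 443 in KO. The log2 was 0.57 in WT (SE 0.123, adjusted p = 0.0213, edgeR) and 0.64 in KO (SE 0.123, adjusted p = 0.0299, edgeR), with the NT-named γH2AX library the higher one in each genotype.

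As sums over whole chromosomes, γH2AX and H2AX differed little. On chromosome 8 γH2AX minus H2AX was a log2 of 0.015 in WT and -0.006 in KO, and neither passed the threshold (edgeR, adjusted p = 0.52 and 0.85 over 20 chromosomes). On chromosome 18 it was 0.030 (SE 0.0069, adjusted p = 0.0442, edgeR) in WT and 0.028 (adjusted p = 0.0163, edgeR) in KO. Without the high-count bins of the genome the values on chromosome 18 were almost the same, 0.031 and 0.029, but with larger SEs (0.0128 and 0.0139) both calls were lost (adjusted p = 0.095 and 0.19, edgeR). Chromosome 9 had -0.074 in KO (SE 0.019, adjusted p = 0.0163, edgeR), which was -0.007 (adjusted p = 0.54) without its 2 high-count bins.

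Whether the difference between assays itself changed from WT to KO was tested as an interaction, in which both terms are KO against WT. The same libraries chose the chromosomes, so these p-values are not independent of that choice and lend it no support. Of the 338 bins, 2 passed for γH2AX against H2AX, both lower in KO, against 0.0387% higher and 0.116% lower over all bins. By DESeq2 5 bins passed, and 11 had an unadjusted p under 0.05 in edgeR. For H2AX against input, edgeR called 0 bins, against 0% in each direction over all bins, with 17 at an unadjusted p under 0.05 and 1 called by DESeq2. The chromosome sums gave log2 differences of -0.022, -0.025 and -0.002 for γH2AX against H2AX on chromosomes 8, 9 and 18 (adjusted p = 0.988 each, edgeR) and of 0.001, -0.002 and -0.002 for H2AX against input (adjusted p = 0.964 each, edgeR).

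The 2 bins that passed are the last of chromosome 8. In the bin with Nrp1, Ccdc7a and Itgb1, from 128000001 to 129000000, the γH2AX levels were 506 and 454 CPM in WT against 402 and 398 in KO, while the input levels were 375 and 368 in WT and 420 and 411 in KO. In the last bin, 129000001 to 129401213, γH2AX was 211 and 174 in WT and 128 and 113 in KO, and input was 113 and 111 in WT and 118 and 120 in KO. The γH2AX libraries of KO lay below those of WT in both bins, the H2AX and input libraries above. The last bin holds the starts of Ccdc7b, Gm32856 and 2610044O15Rik8, genes whose products are little described. In H2AX the levels were 328 and 320 in WT and 381 and 377 in KO in the first of these bins, and 92.6 and 93.3 and 114 and 113 in the second.

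Divided by the mean input of the same genotype, γH2AX was 1.36 and 1.22 in WT in the bin of Nrp1 and Itgb1 and 1.88 and 1.55 in the last bin. In KO the same ratios were 0.969 and 0.959, and 1.08 and 0.954, so both bins were near the input level there. H2AX was 0.882 and 0.861 in WT and 0.918 and 0.909 in KO in the first of them, and 0.826 and 0.832 and 0.955 and 0.948 in the last. In WT γH2AX exceeded H2AX by a log2 of 0.57 (SE 0.0495) and 1.06 (SE 0.0897), each with an adjusted p of 0.000349 (edgeR), and these calls were made in every alternative run. In KO the same comparison gave 0.086 and 0.10, and neither passed (adjusted p = 0.36 and 0.53, edgeR). The change from WT to KO was -0.49 (SE 0.0698, adjusted p = 0.0329, edgeR) and -0.96 (SE 0.126, adjusted p = 0.0328, edgeR). As said above, the p-values of this change come from the libraries that chose the chromosomes and are not independent of that choice.

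One bin further from the end, from 127000001, γH2AX was 402 and 403 CPM in WT against 390 and 406 in KO, so the genotypes overlapped there. Against H2AX, γH2AX was still higher in WT by a log2 of 0.15 (adjusted p = 0.0131, edgeR), and the change from WT to KO, -0.23, did not pass (adjusted p = 0.0796, edgeR). The call of the change was lost in both of the last bins when only the groups compared entered the fit (adjusted p = 0.257) and when any 1 of the 4 H2AX libraries was left out (adjusted p = 0.172 to 0.475), with values of -0.48 to -0.51 and -0.95 to -0.97. For the bin of Nrp1 and Itgb1 it was also lost when γH2AX of the Xray-named KO column was left out (adjusted p = 0.087).

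**Figure D3:**
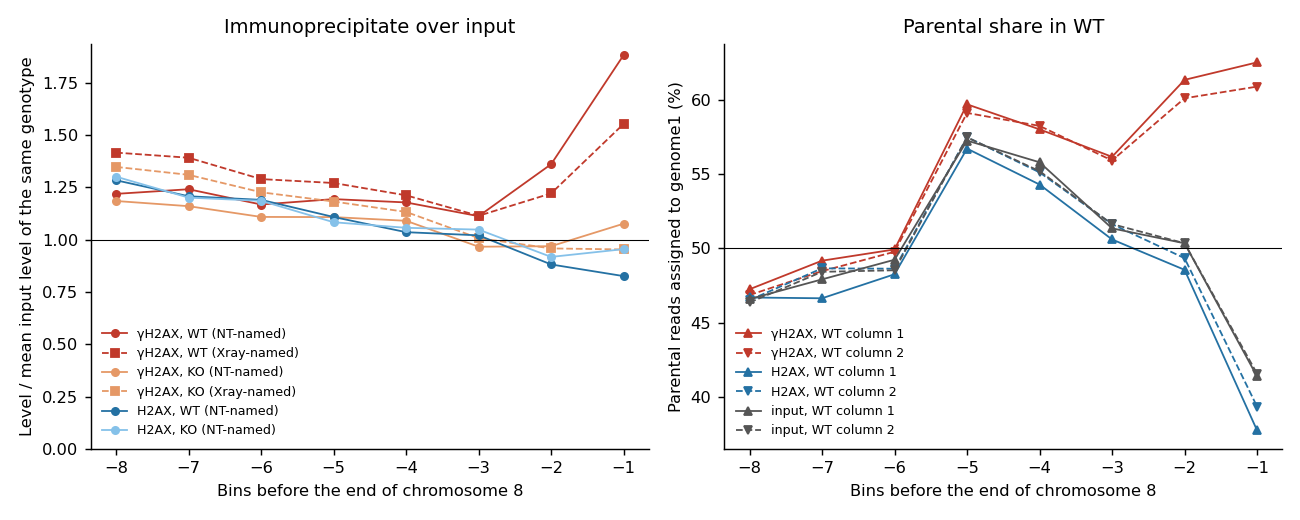
Left, level of γH2AX (WT and KO, both libraries) and H2AX (NT-named libraries) divided by the mean input of the same genotype (y axis) in the last 8 bins of chromosome 8 (x axis); right, share of parent-assigned WT reads on genome1 (%) in the same bins, for 3 assays and 2 columns. The γH2AX curves of WT rise to 1.88 and 1.55 in the last bin while those of KO stay near 1, and on the right γH2AX departs from H2AX and input in the same bins.

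The other libraries give these bins without having been used to find them. The WT library of the clone table that is not a copy had γH2AX levels of 505 and 207 CPM in the bins at 128000001 and 129000001, close to the WT libraries of the first table, and H2AX levels of 300 and 79.2. The KO clones had γH2AX levels of 462 and 428 in the bin of Nrp1 and Itgb1 and of 135 and 123 in the last, and the rescued clones 479 and 426, and 134 and 116. Of the HY clones, column 1 had 1075 and 431 and column 2 had 398 and 126. Column 1 of the HY clones therefore stood above every other library in both bins, and column 2 within or near the range of the KO and rescued clones. H2AX of the clones ran from 273 to 371 and from 61.8 to 77.8. In γH2AX the HY clones stood above the KO clones by log2 values of 0.74 (SE 0.294) and 1.12 (SE 0.36), and the KO clones below WT by -0.33 and -0.85, none of which passed (edgeR, adjusted p = 0.32, 0.16, 0.60 and 0.22).

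The parental origin of reads, read from alleles that differ between the 2 parents of the hybrid, was given for WT in the clone table. The files name the parents genome1 and genome2 without the strain, and parental counts of other genotypes were not used here. On chromosome 8 genome1 had 53.7% ± 0.0437 (SD, n = 2) of the assigned input reads, on chromosome 9 54.8% ± 0.0176, and on chromosome 18 63.8% ± 0.130, against 53.6% on the other autosomes. Chromosome 18 thus leaned further to genome1 than the others, and it did so in γH2AX (63.8%) and H2AX (63.8%) as well. On chromosomes 8 and 9 the γH2AX shares were 54.0% and 54.6% and the H2AX shares 53.6% and 55.0%.

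Within chromosomes the parental share was not even. Input bin medians were 57.0%, 57.8% and 64.3% on chromosomes 8, 9 and 18, and 108, 104 and 87 bins stood above 50%. A set of bins stood below 40%: on chromosome 8, 5 bins from 81000001 to 86000000 had shares of 20.2% to 38.9% and 5 from 88000001 to 93000000 had 21.0% to 31.0%. On chromosome 9 there were 4 such bins from 80000001 to 84000000 (19.9% to 33.5%), 4 from 104000001 to 108000000 (23.3% to 35.8%), 2 from 47000001 to 49000000 with Cadm1 (27.6% to 37.4%) and 1 from 98000001 (36.7%). Chromosome 18 had 1, from 59000001, with 26.6%. The 2 input libraries differed by a median of only 0.364 to 0.430 points per bin. In the low bins of chromosome 8 a somewhat smaller part of all input reads could be assigned to a parent, 52.6% and 55.5% in the 2 columns against 58.7% and 63.3% in its other bins. On chromosome 9 the low bins had 51.3% and 54.3%, against 32.9% and 36.7% in the others, which include the high-count bins. Without its high-count bins the whole chromosome had 56.3% and 60.6%, above the low bins as on chromosome 8. The part of this in the low shares was not tested.

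Comparing the parental balance of γH2AX with that of input called 10 of the 337 bins with enough parental reads, 7 toward genome1 and 3 toward genome2 (edgeR), against 1.4% and 1.09% of 2577 bins. The last bins of chromosome 8 were among them. In the bin of Nrp1 and Itgb1 genome1 had 61.3% and 60.1% of γH2AX reads, against 48.6% and 49.3% of H2AX and 50.3% and 50.3% of input. In the last bin it had 62.5% and 60.9% against 37.8% and 39.3%, and 41.4% and 41.6%. The log2 shifts were 0.61 (SE 0.0303, adjusted p = 6.19e-29, edgeR) and 1.18 (SE 0.0625, adjusted p = 1.66e-27, edgeR). Set against input, γH2AX on genome1 was 1.63 and 3.03 and on genome2 1.07 and 1.34, so both parental copies stood above input and genome1 by more. The shift grew smaller with distance from the end, with 0.26 at 127000001, 0.16 at 126000001 and 0.12 at 125000001 (adjusted p = 9.98e-13, 8.84e-06 and 0.000548, edgeR). The other 2 toward genome1 lay at 116000001 and 102000001 on chromosome 8, with 0.098 and 0.15.

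The 3 bins toward genome2 lay on the other chromosomes. In the Lars2 bin, classed as repeat-like, genome1 had 57.7% of γH2AX reads against 61.2% of input. The log2 shift was -0.21 (adjusted p = 6.74e-08, edgeR). There γH2AX over input was 1.06 on genome1 and 1.23 on genome2. Over all reads of that bin in WT of the first table the excess of γH2AX over input was wider. The parental ratios, from assigned reads only, thus do not describe the whole signal. In the bin from 85000001 on chromosome 18, where no protein-coding gene starts, genome1 had 59.1% against 67.9%, a shift of -0.55 (adjusted p = 5.6e-22, edgeR). There γH2AX over input was 1.33 on genome2 and 0.913 on genome1. The bin of Setd2 (a histone methyltransferase) and Smarcc1 on chromosome 9 had -0.11 (adjusted p = 0.00715, edgeR), a call that was lost without γH2AX column 2 or either input column.

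Whether adding SIRT7-WT back to the KO clones changed these bins was tested next. In γH2AX 0 of the 338 bins passed (edgeR, 1 at an unadjusted p under 0.05), against 0.0387% higher and 0% lower over all bins. In H2AX 0 passed, 0 were at an unadjusted p under 0.05, and the share over all bins was 0% each way. For the interaction of assay and rescue the counts were 0 and 0, against 0% and 0%. DESeq2 called 0 of these bins in each of the 3. The sums of chromosomes 8, 9 and 18 differed in γH2AX by log2 values of -0.008 (SE 0.101), -0.026 (SE 0.142) and -0.000 (SE 0.218), and these SEs carry the gap between the columns of a group. The rescued clones are the labelled KO clones with SIRT7-WT, and within a column the shares without high-count bins moved by log2 values of -0.028 to 0.017 in γH2AX and -0.027 to 0.0060 in H2AX over the 3 chromosomes. With the column number as a block the γH2AX SEs were 0.048, 0.131 and 0.016 (adjusted p = 0.981 each, edgeR), and 0 bins were called in either assay.

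HY clones against KO clones gave 0 called bins in γH2AX (edgeR; the 2 at an unadjusted p under 0.05 are the last bins of chromosome 8), against 0% higher and 0.0387% lower over all bins, and 0 in H2AX (6, and 2 by DESeq2), against 0% and 0.0387%. The chromosome 18 sums were lower in the HY clones by -0.24 (SE 0.218, adjusted p = 0.55, edgeR) in γH2AX and -0.28 (adjusted p = 0.50, edgeR) in H2AX, within the spread of the clones. With the column number as a block, which supposes that column 1 of one group goes with column 1 of another, 15 γH2AX and 32 H2AX bins were called. The labels do not tie those numbers together, and they name the HY and KO clones as different clones. The block thus pairs different clones, and these counts are not read as a difference between the groups.

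The columns of one group lay far apart. On chromosome 9, without its high-count bins, H2AX shares were 5.47% and 4.31% in columns 1 and 2 of the KO clones and 5.49% and 4.30% in the rescued clones. γH2AX gave 5.15% and 4.00%, and 5.21% and 4.05%. On chromosome 18 the order was turned around, with H2AX at 2.78% and 3.62% in the KO clones and 2.73% and 3.63% in the rescued ones, and γH2AX at 2.95% and 3.88%, and 2.95% and 3.84%. The rescued columns thus lay beside the KO column of the same number, and the 2 columns of a group lay further apart than KO and rescue did. The HY clones had H2AX shares of 5.03% and 5.43% on chromosome 9 and 2.27% and 2.98% on chromosome 18.

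The split on chromosome 9 between columns centred on the stretch that was lower in the KO of the first table. Over the 39 ordinary bins from 23000001 to 63000000, the median log2 of H2AX against the WT libraries of the clone table was 0.26 in column 1 of the KO clones and -0.49 in column 2, and 0.26 and -0.50 in the rescued clones. In γH2AX the values were 0.15 and -0.61, and 0.17 and -0.54. From 63000001 to the end, the H2AX medians were 0.26 and 0.03 in the KO clones and 0.23 and 0.05 in the rescued. In CPM of a total without the high-count bins, the H2AX mean of the stretch was 477 and 291 in the KO clones and 480 and 290 in the rescued clones. The HY clones had H2AX medians of 0.11 and 0.25 there. Column 2 of the KO and rescued clones was therefore low in the same stretch as the first table's KO, and column 1 was not. Over the 20 bins before the stretch, however, H2AX was low in all clone columns, with medians of -0.35 and -0.55 in the KO clones, -0.40 and -0.53 in the rescued and -0.52 and -0.46 in the HY clones, where both KO libraries of the first table had 0.21. In γH2AX those bins had 0.13 and 0.11 in the KO clones and 0.08 and -0.04 in the rescued. The stretch was marked out on the KO and WT input of the first table, and the columns were looked at afterwards, without a test.

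**Figure D4:**
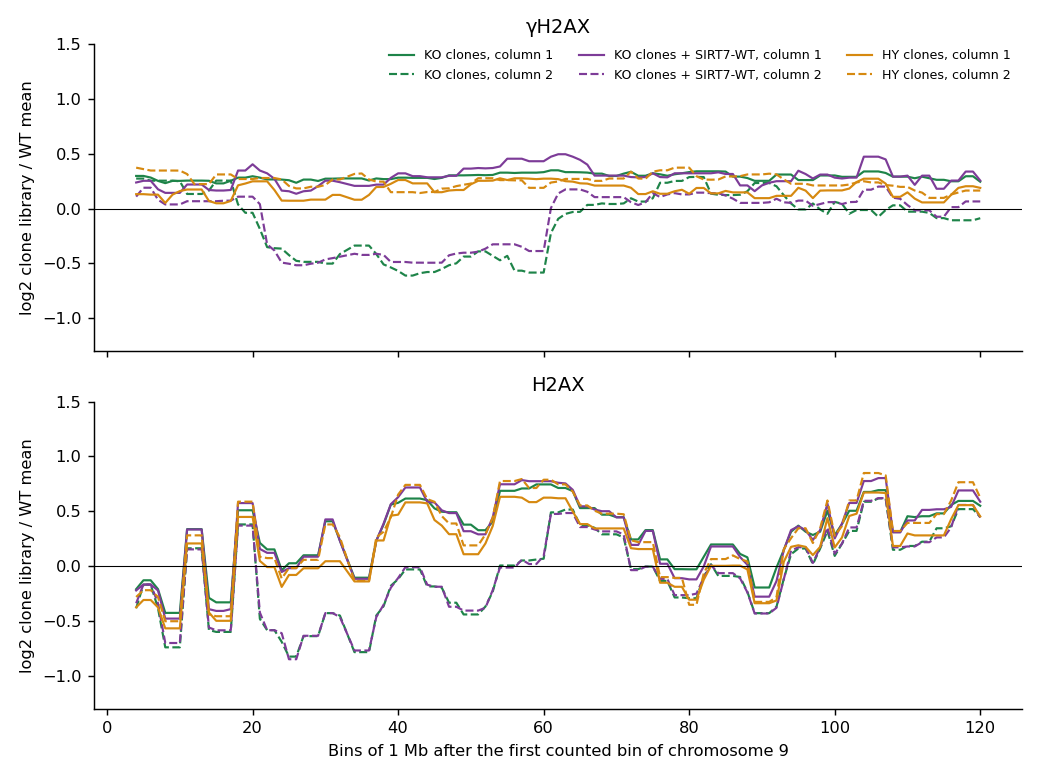
Log2 of each clone library over the mean of the 2 WT libraries of the clone table (y axis; running median over 5 bins) along chromosome 9 (x axis, bins in order), γH2AX above and H2AX below, without the 2 high-count bins and the first bin. Over the lower stretch the column 2 lines of the KO and rescued clones lie together, at or below 0 in nearly all bins, and under the column 1 lines of both; the lines use CPM of all autosomal reads, so their level differs a little from the medians in the text.

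Genes within the stretch show the same. The bin of H2ax had H2AX levels of 768 and 486 CPM in columns 1 and 2 of the KO clones, 797 and 478 in the rescued clones and 737 and 824 in the HY clones. Its γH2AX levels were 530 and 281, 604 and 326, and 503 and 497. The Atm bin had H2AX levels of 385 and 241 in the KO clones and 381 and 247 in the rescued clones. That of Cadm1 (a cell adhesion molecule) had 418 and 248, and 418 and 243. In each of these bins column 2 was the low one in the KO and rescued clones alike.

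Against WT of the clone table, the KO clones differed in many bins in H2AX and in few in γH2AX. Of the 2 WT columns per assay, 1 is a copy of a library that chose the chromosomes. The p-values of KO clones against WT are thus not independent of that choice and lend it no support. In H2AX 108 bins were higher and 63 lower (edgeR), against 25.9% and 27% of all bins, but without the WT column that is a copy of the first table's library 49 were called in place of 171. In γH2AX 0 were higher and 3 lower, against 0.0387% and 0.62%. Those 3 are the bins of chromosome 9 from 2000001 (log2 -3.39), 3000001 (-1.35) and 35000001 (-2.37), the lowest member and the 2 high-count bins. H2AX was lower in the same way from 2000001 (-3.47) and 35000001 (-2.30). As sums, chromosome 8 was higher in the KO clones by 0.30 in H2AX (SE 0.089, adjusted p = 0.0157, edgeR) and by 0.23 in γH2AX (SE 0.089, adjusted p = 0.0567, edgeR). Without the high-count bins these were 0.18 (adjusted p = 0.15) and 0.11 (adjusted p = 0.51). The H2AX call was lost without KO clone column 1 (adjusted p = 0.093) and without either WT column (adjusted p = 0.074 and 0.11). Chromosomes 9 and 18 passed in neither assay.

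H2AX of the KO clones departed from WT in both directions, and the other clones had a like pattern by gene starts. In bins with 0 protein-coding starts the median log2 of H2AX over WT input, centred on the members, was -0.97 and -1.03 in the KO clones. It was -1.03 and -1.01 in the rescued and -0.90 and -1.10 in the HY clones. The departures below are therefore not read as particular to the KO clones. The bin of Crtc1 and Ell (regulators of transcription) on chromosome 8 had H2AX levels of 903 and 911 CPM in the KO clones and 503 and 403 in WT, a log2 of 1.03 (SE 0.162, adjusted p = 0.000351, edgeR). In the bin of Sgcz (zeta-sarcoglycan, a very long gene) the levels were 149 and 127 in the KO clones and 204 and 279 in WT, a log2 of -0.77. Both groups stand apart there, in opposite directions. The bin of Dcc (a netrin receptor, also very long) on chromosome 18 had 138 and 157 against 261 and 311, a log2 of -0.92, and that of Ctif had 670 and 910 against 506 and 421, a log2 of 0.80. The calls on chromosome 18 were lost without the copied WT column (adjusted p = 0.0602 to 0.0994 for the 4 named bins, those of Ctif, Nfatc1, Dcc and Tmx3).

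Within the KO clones γH2AX was more even than H2AX. It stood above H2AX in 79 bins and below it in 103 (edgeR), against 32.6% and 29.9% of all bins, with 99 and 59 when scaled to the autosomal total. That scaling moved the median of all bins by 0.16 on the log2 scale here and by 0.13 in γH2AX of KO clones against WT. The Sgcz bin had γH2AX levels of 287 and 328 CPM beside its H2AX levels of 149 and 127, a log2 of 0.99 (SE 0.138, adjusted p = 0.000433, edgeR). The Crtc1 bin had 567 and 426 beside 903 and 911, a log2 of -1.04 (SE 0.143). In the bin of Smarca4 (a chromatin remodelling ATPase) on chromosome 9, γH2AX was 566 and 395 and H2AX 926 and 863, a log2 of -1.07 (SE 0.161). The Dcc bin had 251 and 382 beside 138 and 157, a log2 of 0.94 (SE 0.248, adjusted p = 0.00488, edgeR), which was 0.62 (adjusted p = 0.0567) without γH2AX of column 2.

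The bins of DNA damage response and replication genes were described by their calls. In WT H2AX stood above input in 18 of their 31 bins and below in 2, with a median log2 of 0.14 against 0.020 over the 338 bins, where 30.5% and 25.9% of all bins were called. In KO the counts were 17 and 2 (0.10 against -0.0028), beside 21.4% and 28.2% of all bins. In the clones H2AX against WT was higher in 18 and lower in 1 (0.47 against 0.18), beside 25.9% and 27% of all bins. Those calls lean on the copied WT column, without which the members had 49 in place of 171. γH2AX against H2AX was higher in 1 and lower in 21 (-0.50 against -0.14), beside 32.6% and 29.9%. The bins of extracellular matrix and fibroblast genes had like medians in these 2 comparisons, 0.47 and -0.47. H2AX rose with the number of gene starts in a bin (below), and the list was not set against bins with as many starts. Nothing is therefore read about damage response genes from these counts. γH2AX itself, KO clones against WT, was called in 0 of the 31 (edgeR; the count over all members is 3). Medians over all tested bins were -0.0004 in WT for H2AX against input and -0.0029 in the KO clones for γH2AX against H2AX.

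The other groups are read against the same shares of all bins, not against bins with as many gene starts. For H2AX against input these shares were 30.5% and 25.9% in WT and 21.4% and 28.2% in KO. They were 32.6% and 29.9% for γH2AX against H2AX in the KO clones and 25.9% and 27% for H2AX of KO clones against WT. The long genes (39 genes in 59 bins) were near the first of them: H2AX against input was higher in 20 bins and lower in 13 in WT (median log2 -0.0030), and in 15 and 17 in KO. In the KO clones γH2AX against H2AX was higher in 16 and lower in 9 (median 0.022), and H2AX against WT higher in 10 and lower in 15. Extracellular matrix and fibroblast genes (16 genes in 14 bins) had 6 higher and 4 lower for H2AX against input in WT (median 0.094), and 1 higher and 7 lower for γH2AX against H2AX in the KO clones (median -0.47), Col4a1 and Col4a2 (type IV collagen chains, in 1 bin, -0.87) among the lower. The 26 bins of gene-family arrays had 8 and 1 in WT and 6 and 9 in the KO clones. Of the 3 bins of imprinted genes 1 was higher for H2AX against input in WT.

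The number of protein-coding gene starts in a bin, which the choice of chromosomes did not use, went with the H2AX level and, less evenly, with that of γH2AX. The 338 bins were split into 43 with 0 starts, 113 with 1 to 4, 124 with 5 to 14 and 58 with 15 or more. In the clone libraries the median log2 of H2AX over the WT input of the first table, centred on the members, ran from -1.10 to -0.90 in bins with 0 starts and from 0.54 to 0.68 in bins with 15 or more. In γH2AX of the clones the ranges were -0.37 to -0.05 and 0.03 to 0.34, so the slope was far shallower. In the first table H2AX went from -0.11 to -0.086 up to 0.11 to 0.19. There γH2AX differed by column name in both genotypes. The NT-named libraries went from -0.13 (WT) and -0.07 (KO) up to 0.10 and 0.12. The Xray-named went from -0.27 and -0.21 up to 0.22 and 0.25, a steeper rise than that of H2AX. The WT library of the clone table that is no copy had H2AX medians of -0.36 and 0.23, between the first table and the clones. This is a description over bins that share their libraries and their base composition, and no p is given.

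**Figure D5:**
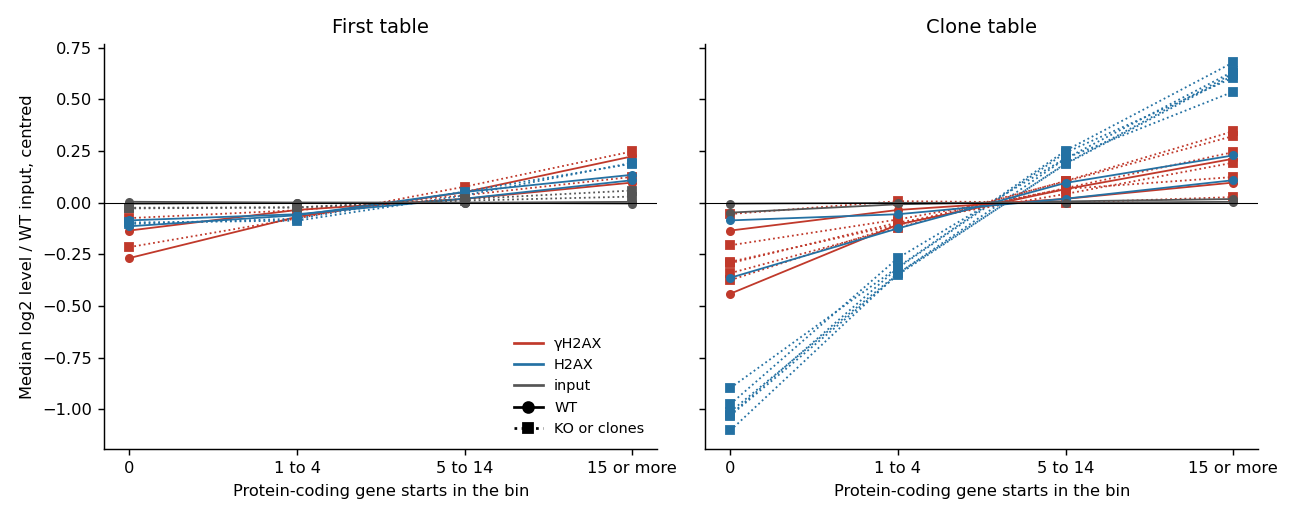
Median log2 level over WT input (y axis, centred on the 338 bins) by the number of protein-coding gene starts in the bin (x axis, 0, 1 to 4, 5 to 14, 15 or more), each line one library, for the first table and the clone table. H2AX of the clones rises from about -1 to above 0.5, and all other sets of lines rise less.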

How the data were processed

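The deposited tables hold raw read counts per 1 Mb bin in mm10, split into all reads and reads assigned to genome1 or genome2, per the file headers. The submitters' processing notes name Bowtie2 2.2.9, MACS2 2.2.7.1, deepTools 2.4.2, FastQC 0.11.3, SAMtools 0.1.19 and Trimmomatic 0.36, with no order. How the counts were made, and how multiply mapping reads were treated, is not given in the sources used here. Chromatin was sheared to 300 to 500 bp, per the labels' protocols. Of 144 columns of counts 96 were not used. Of these 24 are clone input, for which no labelled sample was found, and 72 are parental columns of the first table and of the clones, whose names give a group but not which of its samples, and which were therefore not used beside the group's total counts.

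Bins with a mean count of at least 100 in each table were tested with edgeR 4.0.16 in R 4.3.3 (TMM scaling, quasi-likelihood, all libraries of a table in one fit, Benjamini-Hochberg adjustment over 2582 bins, threshold 0.05). Sums over 20 chromosomes were tested with the autosomal total as library size. Parental balance was tested on the genome1 and genome2 counts of the WT libraries of the clone table. Levels (CPM) are reads per 1000000 autosomal reads. Alternatives were DESeq2 1.42.0, other scalings, no filter, the groups compared alone, a replicate block and each library left out. Leaving out bins above 5 times the median count was chosen after seeing the data.

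Named bins are, for each comparison and chromosome, up to 2 called bins with the smallest p per direction, the 2 highest and 2 lowest by input KO over WT and by parental share, the ends, and bins of the gene lists. Other bins named were chosen after their values were seen. The chromosomes, members and gene lists were chosen with earlier results of these data known. The tests were checked on simulated data.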

Additional observations from a re-analysis of the deposited data

Results flagged for a closer look

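The last 2 bins of chromosome 8 were singled out by the test of whether γH2AX against H2AX differs between KO and WT. That test uses the KO and WT libraries that chose the chromosomes, so its p-values are not independent of the choice. In the bin with Nrp1 and Itgb1, from 128000001 to 129000000, the difference changed by a log2 of -0.49 from WT to KO (adjusted p = 0.0329, edgeR). In the last bin, 129000001 to 129401213, it changed by -0.96 (adjusted p = 0.0328, edgeR). Both bins also showed the largest γH2AX shifts toward genome1 among the called members. Groups held 2 libraries, too few to look for a single library that lies apart.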

How the results depend on the processing

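The KO over WT log2 ratios kept their direction on every scale. With TMM-adjusted library sizes, with the total over all chromosomes and without the high-count bins they were 0.21, 0.16 and 0.18 for chromosome 8 input, 0.14, 0.093 and 0.13 for chromosome 9 input, 0.074, 0.052 and 0.072 for chromosome 18 γH2AX, and 0.10, 0.059 and 0.074 for chromosome 18 input. DESeq2 called 98 bins for γH2AX against H2AX in WT (edgeR 46), 55 in KO (17), 5 for γH2AX against H2AX in KO minus WT (2), 1 for H2AX against input in KO minus WT (0) and 2 for H2AX of HY against KO clones (0). With only the groups compared these counts were 15, 0, 0, 4 and 1, and 266 for H2AX against input in KO (162). The autosomal total gave 9 for γH2AX against H2AX in KO.

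Leaving out 1 library gave 3 to 109 calls for γH2AX against H2AX in WT, 0 to 62 in KO and 103 to 178 in the KO clones (103 without γH2AX column 2). It gave 102 to 152 for H2AX against input in WT (102 without the Xray-named H2AX library) and 59 to 99 in KO. The γH2AX against H2AX change from WT to KO had 0 to 2, γH2AX of HY against KO clones 0 to 3 (3 without HY column 2), and the parental test 7 to 11. H2AX of KO clones against WT had 49 to 168 (49 without WT column 2, 97 without KO column 2), and γH2AX 2 to 3. Of 732 alternative values for 74 named results, 661 kept their call, 71 lost it and 0 reversed.

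A replicate block by column name or number was fitted as an alternative, since the labels do not tie columns of the same name or number to one culture or clone. Same-named columns of one assay deviated together, with r over all bins of 0.959, 0.68 and 0.486 between KO and WT (γH2AX, H2AX, input), 0.854 and 0.936 between KO and rescued clones in γH2AX and H2AX, and 0.369 and 0.136 between HY and KO clones. Across assays they need not: r was -0.526 between γH2AX and input of KO, -0.485 between γH2AX of WT and input of KO, and -0.129 between γH2AX of KO clones and H2AX of HY clones. With the block 26 bins were called for γH2AX against H2AX in KO, 15 for γH2AX and 32 for H2AX of HY against KO clones. The other bin counts stayed within 1.5 times. Chromosome sums called only with the block were HY against KO clones on chromosome 18 (γH2AX -0.24, adjusted p = 3.05e-05; H2AX -0.28, adjusted p = 9.3e-06, edgeR) and chromosome 8 (H2AX -0.14, adjusted p = 0.0494, edgeR), γH2AX against H2AX in the KO clones on chromosome 18 (0.086, adjusted p = 0.00653, edgeR), γH2AX of KO clones against WT on chromosome 8 (adjusted p = 0.00347, edgeR) and H2AX against input in WT on chromosome 18 (-0.019, adjusted p = 0.0174, edgeR). The cause of these differences was not tested. The WT side of the KO clone comparison includes the copied column, a library that chose the chromosomes. By label the HY clones are not the KO clones, so the block pairs different clones there. Those block calls of HY against KO clones are not read as a difference between the groups.

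Each group held 2 libraries, and the spread between clone libraries was 11.4%, which limits what can be seen among the clones. Parental shares rest on the part of reads assigned to a parent.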
